A study of Mus musculus with 9 samples.

Results

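Burst-forming erythroid progenitors (BFU-E) from mouse fetal liver had been isolated by 2 sorting gates, and the transcriptomes of their water-treated cultures were compared here. One gate took cells with low CD71, the transferrin receptor; the other took cells low in both CD71 and CD24a, a glycosylphosphatidylinositol-anchored surface protein. The comparison set 1 library against 1 library, so it carries no test, and a difference was read only against a fixed size rule. Genes were included when they reached 1 RPKM (reads per kilobase of transcript, scaled to library size) in either library, which took in 9833 of the 19840 gene names in the files. Because near-identical gene copies compete for the same reads, the genes were then divided by sequence: 7227 were unique, 2407 shared sequence with another gene or pseudogene, and 199 could not be assessed.

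All cells came from C57BL/6 embryos at embryonic day 13.5 to 14.5, and in both gates they were kit positive and lacked the stem and megakaryocyte markers CD34 and CD41, the lymphoid markers CD3 and B220, the myeloid markers Gr-1, Mac-1 and CD16/32, and the erythroid marker Ter119. The CD71 sort kept the 10% of such cells with the least CD71, and the CD71/CD24a sort kept the 10% with the least CD71 and CD24a. Sorted cells were cultured for 4 h in serum-free medium with stem cell factor (100 ng/mL), insulin-like growth factor 1 (40 ng/mL) and erythropoietin (2 U/mL), then for 4 h more with water. The same sorted cells were also divided into arms with 100 nM dexamethasone (Dex, a glucocorticoid) in both sorts, and with 333 µM DMOG (a prolyl hydroxylase inhibitor), alone or with Dex, in the CD71/CD24a sort. The Dex pair of libraries therefore repeats the culture and the library of each sort, but not the sort itself, and whether embryos were pooled is not given in the sources used here. Fresh, uncultured BFU-E, CFU-E (the 20% with the most CD71 in the same lineage gate) and Ter119+ erythroblasts were 1 library each.

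BFU-E are the earliest progenitors committed to the red cell lineage; they divide under stem cell factor and glucocorticoids and give rise to the later colony-forming CFU-E, which depend on erythropoietin. As they mature, transferrin receptor, heme enzymes, membrane skeleton proteins and finally globins accumulate, while stem and progenitor genes such as Gata2, Meis1 and Kit are turned down. CD24a is a surface marker that also becomes more abundant along this path. Adult hemoglobin is made from alpha chains (Hba genes) and beta chains (Hbb genes), each of which the mouse encodes in closely similar tandem copies.

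The depth recovered from the spacing of low RPKM values was 11.86 M reads (M, mega) for the CD71 water library and 18.44 M for the CD71/CD24a water library, and 12.88 to 52.76 M for the other cultured libraries. A scaling factor per library, 1.02 and 1.17 for this pair, was the median ratio over 6888 genes at 1 RPKM or more in all 9 libraries. Levels below are RPKM divided by this factor, differences are log2(level + 1) in the CD71/CD24a sort minus the CD71 sort, and a gene was counted when its difference was at least 2-fold. A range in brackets after a ratio is its exact 95% Clopper-Pearson interval; it rests on the recovered read numbers and holds counting error alone.

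Of the 9833 genes, 140 were at least 2-fold higher in the CD71/CD24a sort (1.42% of those compared) and 299 at least 2-fold lower (3.04%), or 4.46% in either direction. The median difference over all genes was 0.04, and the middle 50% of genes lay between -0.27 and 0.34. Only 31.9% of the genes past 2-fold were higher, but this split depended on the scaling: without a factor the median of all genes moved to 0.22, 361 genes were higher and 210 lower, and 63.2% of them were higher. By an upper-quartile factor 158 were higher and 295 lower. Of the counted genes, 13 of the higher reached 1 RPKM in the CD71/CD24a library alone and 51 of the lower in the CD71 library alone. With the further demand that the counting interval of the ratio exclude 1, 135 higher and 285 lower genes were left. The genes not assessed for sequence, 4 of the higher and 14 of the lower, have no interval and fell out for that reason.

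**Figure D1:**
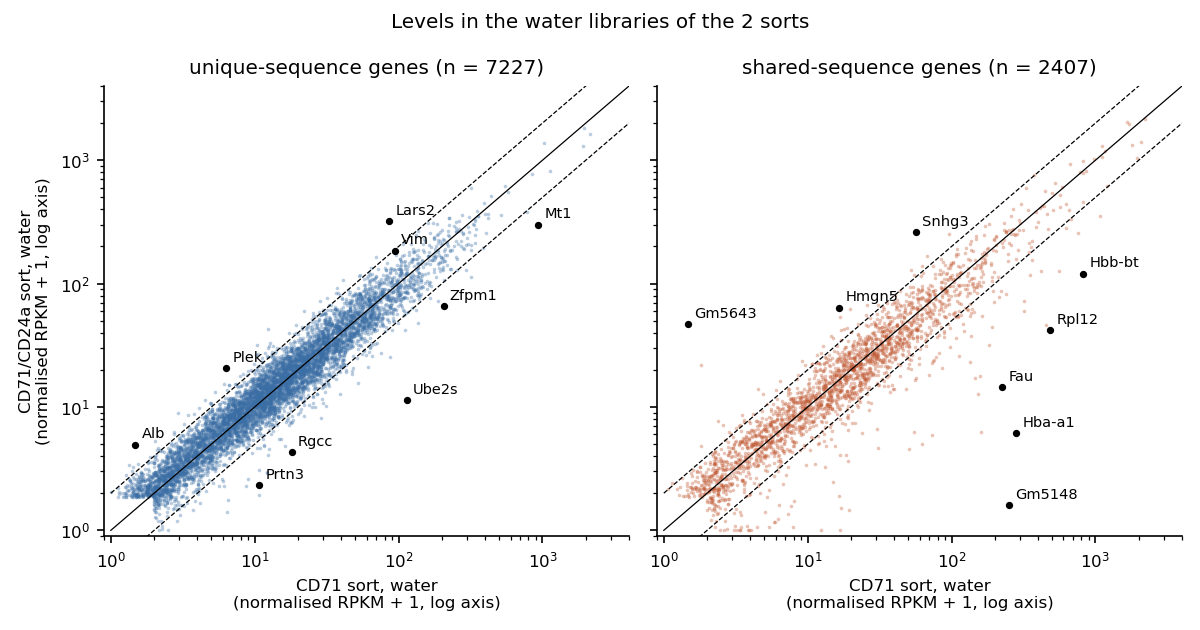
Level of each gene (normalised RPKM + 1, log axes) in the water library of the CD71 sort (horizontal) and of the CD71/CD24a sort (vertical), for 7227 unique-sequence genes on the left and 2407 shared-sequence genes on the right. The solid line marks equal levels and the dashed lines 2-fold; points far below the lower dashed line lie mostly in the right panel, among them Gm5148, Hba-a1, Fau and Rpl12.

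Genes that share sequence with other loci were past 2-fold more often than unique genes. Among the unique genes 84 (1.16%) were higher and 114 (1.58%) lower, against 52 (2.16%) and 171 (7.10%) of the shared genes, and 4 and 14 of the 199 not assessed. Differences of 10-fold or more on the log2(level + 1) scale were seen for 1 unique gene, Ube2s, which was lower, and for 14 lower and 2 higher shared genes. The share of lower genes was 2.00% where no 32-base word of the transcript occurred in another gene and 1.10% above 0 to below 10% of words, then 4.04% from 10 to below 50%, 16.2% from 50 to below 90% and 19.1% from 90 to 100%. The share of higher genes went from 1.06% in the first of these classes to 6.11% in the last. In the Dex pair the lower share ran from 4.44% to 14.0% and the higher share from 2.78% to 7.44% over the same classes.

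**Figure D2:**
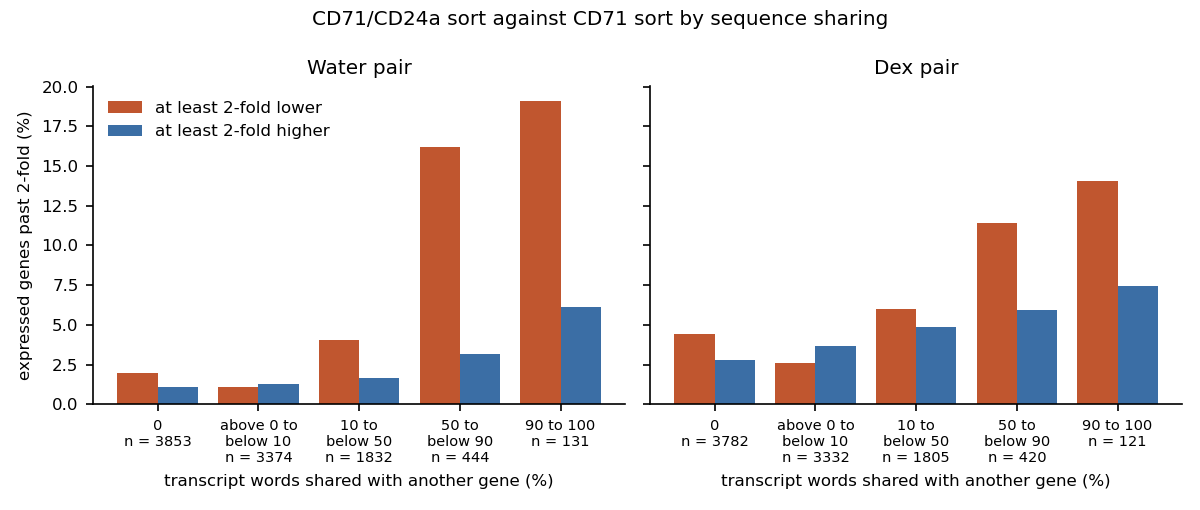
Percent of expressed genes at least 2-fold lower (orange) or higher (blue) in the CD71/CD24a sort, by the percent of the gene's transcript words found in another gene, for the water pair (left) and the Dex pair (right). The number of genes in each class is under its bars; in the water pair the lower share is 2.00% in the first class and 19.1% in the last.

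Examples of such copies are printed because they show how little separates the loci to which a read could be given. Sequences are from the GENCODE M21 transcripts (GRCm38 build), 5′ to 3′, coding strand, and capitals mark bases that differ between the members of a pair. Bases 262 to 381 of the coding sequence of Hba-a1 and the matching bases of Hba-a2, both on chromosome 11, differed at 1 position, the only one in 426 coding bases.
Hba-a1: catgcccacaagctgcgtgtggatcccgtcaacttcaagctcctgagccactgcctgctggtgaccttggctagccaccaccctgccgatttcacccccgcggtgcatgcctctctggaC
Hba-a2: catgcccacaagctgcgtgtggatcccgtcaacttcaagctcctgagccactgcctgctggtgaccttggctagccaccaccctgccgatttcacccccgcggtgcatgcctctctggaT
Rpl12 on chromosome 2 encodes a protein of the large ribosomal subunit. Its coding sequence was identical over all 495 bases to the processed pseudogene Gm10275 on chromosome 10. At least 18 pseudogenes held 1 or more of the Rpl12 words on the coding strand, in a count that did not cover every locus. The first 120 bases are shown.
Rpl12: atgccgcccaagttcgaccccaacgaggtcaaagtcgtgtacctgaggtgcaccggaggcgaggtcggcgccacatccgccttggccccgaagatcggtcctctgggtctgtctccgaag
Gm10275: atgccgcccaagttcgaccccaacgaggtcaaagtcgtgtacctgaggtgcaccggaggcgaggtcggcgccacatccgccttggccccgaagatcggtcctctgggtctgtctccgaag
The pseudogene Gm5643 on the X chromosome differed from Hnrnpa1 on chromosome 15, the gene of an RNA-binding splicing protein, at 19 of 960 aligned bases; bases 127 to 246 of Gm5643 held 1 of these.
Gm5643: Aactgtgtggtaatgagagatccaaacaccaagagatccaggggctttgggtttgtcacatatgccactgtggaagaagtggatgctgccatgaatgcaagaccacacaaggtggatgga
Hnrnpa1: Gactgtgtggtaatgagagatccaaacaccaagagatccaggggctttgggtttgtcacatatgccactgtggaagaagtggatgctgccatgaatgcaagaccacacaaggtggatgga

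Some of the largest differences were exchanged between copies of the same sequence. The files list Gm5643 at 2 places. One record had levels of 22.6 (water) and 14.0 (Dex) in the CD71 sort against 0.460 to 0.609 in the 4 CD71/CD24a libraries, while the other had 0.474 and 0.511 against 39.4 to 48.2. Summed over both records, Gm5643 differed by 0.98 in the water pair, below the 2-fold mark, whereas the records by themselves differed by -3.94 and 4.99. Hnrnpa1 itself stood at 29.5 in the CD71 and 56.2 in the CD71/CD24a water library. The record chosen for Hba-a1 stood at 281 against 5.12 in water, and its other record at 11.2 against 23.4, an opposite difference of 1.001. In all, 142 accessions were listed at more than 1 place, 10 had at least 2 expressed records in the water pair, and 3 of these 10 (Hba-a1, Hba-a2 and Gm5643) had 1 record at least 2-fold higher and another at least 2-fold lower. In the Dex pair there were also 3 of 10, against 0 of 8 between the fresh libraries, 0 of 9 between Dex and water in the CD71 sort and 0 of 8 between Dex and water in the CD71/CD24a sort. Hba-a1 and Hba-a2 were listed at nearly the same levels, 281 and 279 for one record and 11.2 and 11.1 for the other in the CD71 water library. They therefore do not count as separate cases. This table of copies was added after the values were seen. A difference in the level of a single copy cannot be told apart from a difference in how reads were divided among the copies.

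A separate set of shared genes stood apart in the CD71 water library alone. Compared with all 5 other cultured libraries, 27 genes were at least 4-fold higher in it, 23 of them shared, 3 not assessed and 1, Ube2s, unique. None of the other 5 libraries had a shared gene so placed, and 1 unique gene was so placed in the CD71 Dex library. Gm5148, a predicted gene, had a level of 248 in the CD71 water library and 0.518 to 1.82 in the other 5. Rpl12 stood at 482 against 26.3 to 43.0, and Rps27, of the small ribosomal subunit, at 151 against 2.38 to 11.6. For Fau, whose product is a ubiquitin-like protein fused to ribosomal protein S30, the values were 223 against 7.93 to 42.0, and for the glycolytic enzyme Pgam1 49.97 against 3.55 to 7.16. The histone gene H2ac24 was at 15.7 in the CD71 water library and at 0 in the other 5 cultured libraries; set against a floor of 3 reads it was 54.3-fold lower in the CD71/CD24a water library, and the exact counting interval of the ratio begins at 43.1-fold. Of the 27 genes 4 were also at least 2-fold lower in the Dex pair (Fau, -2.27; Ppp1cc, -1.66; Cdk2ap1, -1.06; and 1 record without a symbol), and 1, Rpl31, was at least 2-fold higher there. For the other genes the 2-fold lower level was not seen in the Dex pair. The rule took only genes at least 4-fold lower in the CD71 Dex library, so it favoured this outcome. Without the 27 genes, 272 genes in all and 148 shared genes remained at least 2-fold lower.

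**Figure D3:**
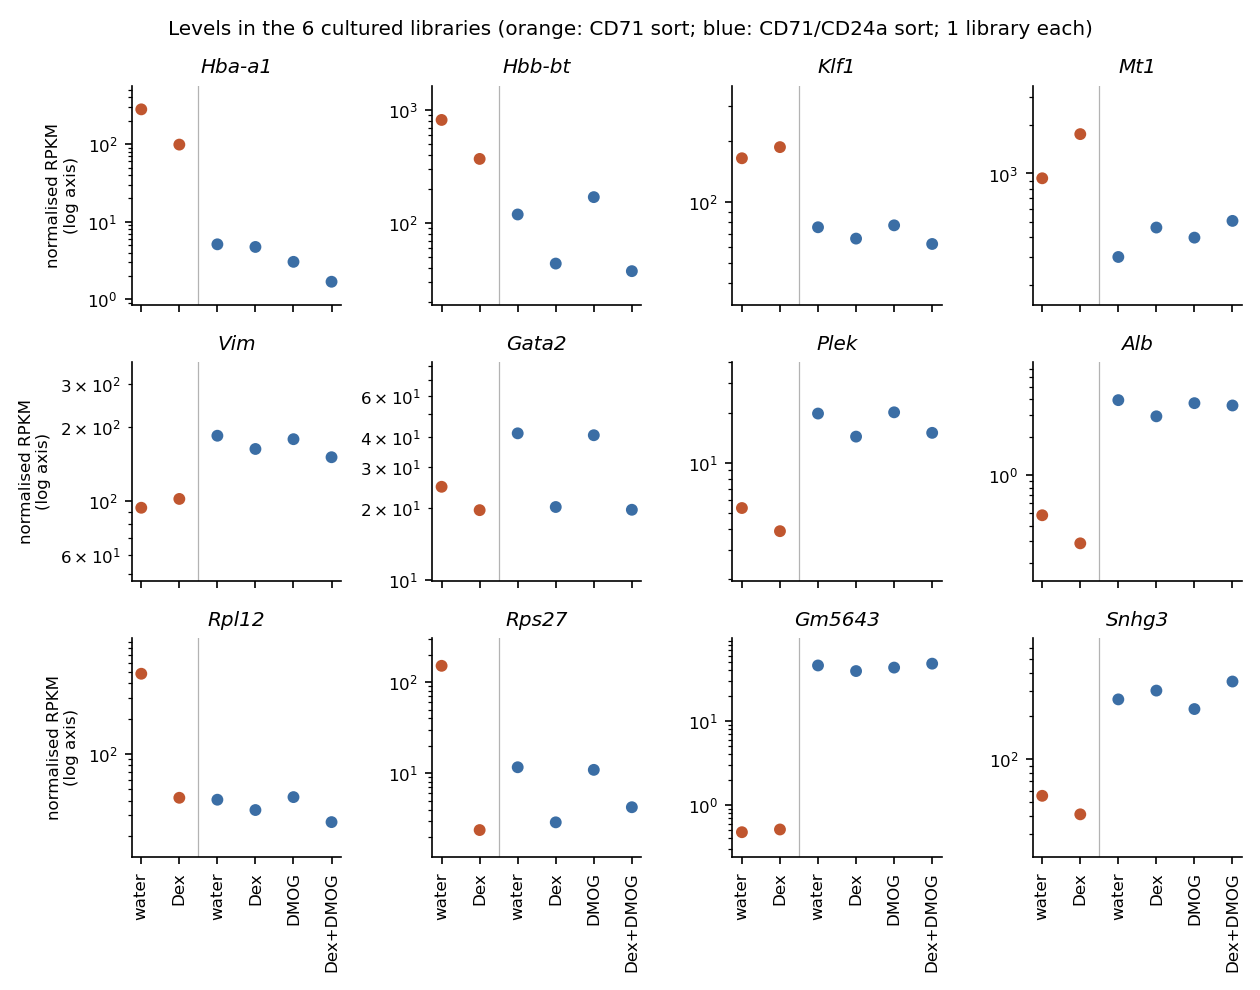
Level (normalised RPKM, log axes with a separate range in each panel) of 12 genes in the 6 cultured libraries, 1 point per library, orange for the CD71 sort and blue for the CD71/CD24a sort. Globins, Klf1 and Mt1 are higher in both CD71 libraries, Vim, Plek, Alb, Gm5643 (the record with the highest mean) and Snhg3 in all CD71/CD24a libraries, Gata2 in the 2 CD71/CD24a libraries without Dex, and Rpl12 and Rps27 are high in the CD71 water library alone.

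Apart from Gm5643, the 5 shared genes with the largest higher differences mostly kept them across libraries. Snhg3, a small nucleolar RNA host gene, had levels of 55.5 and 41.2 in the CD71 water and Dex libraries and of 224 to 348 in the CD71/CD24a libraries. Hmgn5, a nucleosome-binding protein, had 15.6 and 10.3 against 51.8 to 71.4, and the zinc finger gene Zfp979 1.38 and 1.04 against 5.16 to 6.65. Neither of the CD71 libraries overlapped with the CD71/CD24a libraries for these 3 genes, which also held in this direction for 36.4% of all 9833 genes. Rpph1, the RNA component of RNase P, was at 20.9 in the CD71/CD24a water library, above the 4.65 to 5.75 of the other 3 libraries of that sort and the 0.811 and 1.70 of the CD71 sort. Ubb-ps, a ubiquitin pseudogene, had 15.7 and 18.9 in the CD71 sort and 11.7 to 52.3 in the CD71/CD24a sort, so the sorts overlapped.

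For the unique genes, the water and Dex pairs gave like values. All 84 higher and all 114 lower genes had the same sign in the Dex pair, and 62 and 95 of them were at least 2-fold there too, where 3.63% of 9795 genes were at least 2-fold higher and 4.55% lower. In the 4 CD71/CD24a libraries together, all 84 higher genes lay above both CD71 libraries and 109 of the 114 lower genes below both, although 36.4% and 30.8% of all 9833 genes also did so. Over the 7227 unique genes Spearman's rho between the differences of the 2 pairs was 0.88, a description in which each pair shares its sorted cells. Both pairs set a CD71 file against a CD71/CD24a file, so sort and file processing cannot be told apart in either. Among the shared genes, 39 of 52 higher and 93 of 171 lower genes were at least 2-fold in the same direction in the Dex pair, and 2 of the 171 were at least 2-fold in the opposite one.

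The 12 unique genes with the largest lower differences had varied roles. Ube2s, a ubiquitin-conjugating enzyme of mitosis, was at 113 in the CD71 water library but at 13.4 in the CD71 Dex library and 6.49 to 12.5 in the CD71/CD24a libraries, a difference of -3.34 that rests on 1 library. The neuronal tubulin Tubb3 had 9.78 and 3.90 in the CD71 sort against 0.415 to 0.937, with no overlap. Prtn3, the neutrophil protease proteinase 3, had 9.74 and 8.82 against 0.904 to 1.39, a water ratio of 7.31 (4.93 to 11.6). Osm, the cytokine oncostatin M and a target of STAT5, had 11.2 and 2.96 against 0.472 to 1.91. The cell cycle regulator Rgcc stood at 17.1 and 22.5 against 2.74 to 4.25, and the Krüppel-like factor Klf13 at 11.3 and 28.4 against 1.95 to 3.94. Cited4, a transcriptional co-activator, had 86.4 and 51.0 against 10.0 to 24.4. In these 4 genes the 2 sorts did not overlap, which also held in this direction for 30.8% of all 9833 genes. Il1rl1, an interleukin receptor family member, had 7.92 and 8.57 against 1.30 to 5.09. Cdkn2d, a CDK inhibitor, had 5.37 in the CD71 water library but 0.871 in its Dex library, near the 0.294 to 0.826 of the other sort. Chst15, Ndufa4l2 and Tmem238 had differences of -1.92, -1.89 and -1.84. Cdkn2d and Ndufa4l2 passed the filter only through the CD71 library, where they are higher.

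The largest difference among the higher unique genes was 1.90. Which direction held more unique genes depended on the settings: 84 were higher and 114 lower here, 242 and 67 without a scaling factor, and 248 and 186 with a pseudocount of 0.1. Lars2, the mitochondrial leucyl-tRNA synthetase, had levels of 85.2 and 89.4 in the CD71 sort and 163 to 321 in the CD71/CD24a sort, with the water library the highest. Pik3r1, a regulatory subunit of phosphoinositide 3-kinase, had 11.3 and 13.4 against 20.3 to 41.5. Plek, encoding pleckstrin of platelets and leukocytes, had 5.34 and 3.88 against 14.3 to 20.1, and a water ratio of 3.69 (3.24 to 4.22). For Tnfaip8, an apoptosis regulator, the values were 9.44 and 10.7 against 27.9 to 33.6. Cplx2, a complexin of vesicle release, had 1.94 and 1.56 against 7.72 to 9.13. The splicing-related gene Luc7l3 had 20.9 and 17.5 against 50.2 to 67.0, and Anapc13, a subunit of the anaphase-promoting complex, 40.3 and 42.4 against 82.2 to 119. Rgs18, a regulator of G protein signalling in megakaryocytes, had 3.49 and 5.32 against 9.17 to 11.3, and Sh3bgrl had 11.8 and 8.56 against 28.5 to 32.1. None of these 9 genes overlapped between the sorts, which also held in this direction for 36.4% of all 9833 genes. With the GC adjustment described below, Rgs18 was at 0.81 and Sh3bgrl at 0.84, under 2-fold. Alb and Afp are described with the hepatocyte markers, and Snord32a, a small nucleolar RNA, had 9.13 and 14.6 against 15.2 to 25.6 with a wide counting interval (water ratio 2.81, 1.39 to 6.66). At the 2-fold mark itself, the smallest difference counted among unique genes was 1.0002 in size and the largest not counted 0.99995.

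The differences followed base composition. Over the 7227 unique genes, Spearman's rho of the difference with the GC content of the transcript was -0.59 in the water pair and -0.70 in the Dex pair, against -0.28 for fresh CFU-E minus fresh BFU-E; genes are not independent, and each pair shares its libraries. With the genes in 5 equal classes from the lowest GC to the highest, the median difference was 0.42, 0.21, 0.05, -0.12 and -0.33. Of the 114 lower genes 82 were in the highest class, and of the 84 higher genes 48 in the lowest. The median GC was 43.8% for the higher and 58.7% for the lower genes, against 50.4% for all unique genes. Coding stretches of 90 bases whose GC is near that of the whole transcript illustrate this, with G and C in capitals, for 2 erythroid factors that were lower, Zfpm1 (transcript GC 66.8%) and Klf1 (61.0%), and for 2 genes that were higher, Plek (41.8%) and Luc7l3 (41.2%).
Zfpm1: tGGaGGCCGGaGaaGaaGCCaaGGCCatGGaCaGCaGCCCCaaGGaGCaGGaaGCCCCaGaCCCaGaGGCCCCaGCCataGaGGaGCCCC
Klf1: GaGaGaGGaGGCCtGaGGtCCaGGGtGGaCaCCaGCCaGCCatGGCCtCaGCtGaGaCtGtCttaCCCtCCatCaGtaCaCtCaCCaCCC
Plek: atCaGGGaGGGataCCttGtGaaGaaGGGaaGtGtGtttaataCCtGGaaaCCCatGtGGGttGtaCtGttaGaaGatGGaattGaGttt
Luc7l3: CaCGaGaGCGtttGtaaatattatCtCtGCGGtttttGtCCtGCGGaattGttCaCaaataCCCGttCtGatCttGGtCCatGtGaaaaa
An adjustment added after these values were seen, which subtracts the median difference of unique genes of like GC, left 81 genes higher (0.841% of 9634) and 203 lower (2.11%). Of the unique genes 50 were then higher and 58 lower, and of the shared genes 31 and 145. It kept 30 of the 84 higher and 42 of the 114 lower unique genes past 2-fold, and all 198 kept their sign. The part of GC content in the differences below was not tested; adjusted values are given where the adjustment ends or makes a 2-fold call. Counts in the gene lists below stand beside the 1.42% higher and 3.04% lower of all genes (0.841% and 2.11% GC adjusted).

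**Figure D4:**
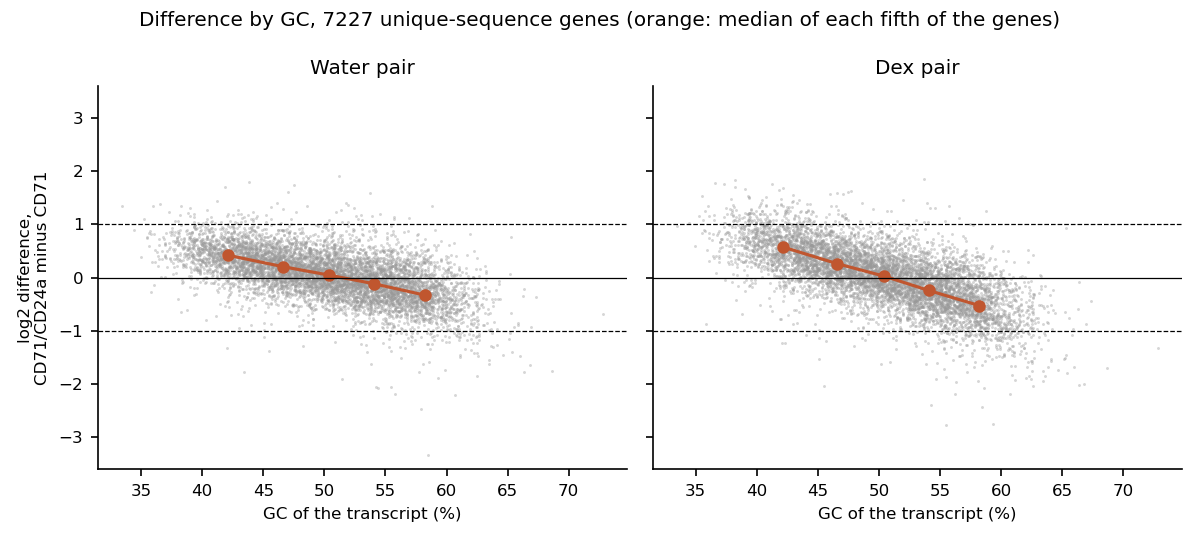
Difference of each of 7227 unique-sequence genes (grey points, log2, CD71/CD24a sort minus CD71 sort) against the GC content of its transcript in percent, for the water pair (left) and the Dex pair (right). Orange points are the medians of 5 equal classes of genes by GC, which go from 0.42 to -0.33 in the water pair and from 0.57 to -0.53 in the Dex pair; dashed lines mark 2-fold.

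None of the 7 expressed genes of the sorting gates differed by 2-fold in the water pair, but Cd24a did after the GC adjustment (-1.06). Tfrc, which encodes CD71, had levels of 201 (water) and 114 (Dex) in the CD71 sort and 167 to 233 in the CD71/CD24a sort, so the sorts overlapped after culture. Cd24a, whose protein the second gate selected against, was at 165 in the CD71 and 103 in the CD71/CD24a water library, a difference of -0.68 and a ratio of 1.61 (1.54 to 1.69). In the Dex pair Cd24a was at 245 and 267, a difference of 0.13, and with DMOG it was at 120 without and 259 with Dex. Kit was at 45.4 and 43.3 in the water pair, and Itga2b, encoding CD41, at 13.8 and 17.9. Cd34 was at 2.27 and 1.87 and Ptprc, encoding the B220 antigen, at 1.47 and 2.15. Fcgr2b, of the CD16/32 antigens, had 1.23 and 0.623. Itgam, encoding Mac-1, was at 0.123 and 0.0197, Cd3e was at 0 in both water libraries, and Xist was present in both water libraries (27.0 and 24.0).

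Adult globin RNA was lower in the CD71/CD24a sort: of 6 expressed genes of the globin list 4, the adult chains, were at least 2-fold lower and none higher. Hbb-bt, an adult beta chain with shared sequence, had levels of 822 (water) and 371 (Dex) in the CD71 sort against 119, 43.8, 170 and 37.5 in the water, Dex, DMOG and combined libraries of the CD71/CD24a sort. The difference was -2.77 in water and -3.05 in Dex, and the water ratio was 6.89 (6.54 to 7.26). The sorts did not overlap, which also held in this direction for 30.8% of all 9833 genes. Hbb-bt differed from Hbb-bs at 1 of 441 coding bases. A difference in its level alone cannot be told apart from a difference in how reads were divided between copies. Hbb-b2, listed at nearly the same levels, gave -2.78. Hba-a2 was likewise listed at nearly the levels of Hba-a1, so the 4 adult genes are not independent counts. Both records of Hba-a1 summed gave 292 and 107 in the CD71 sort and 21.4 to 36.8 in the CD71/CD24a sort, so alpha chain RNA was 10.3-fold lower in water and 2.91-fold lower in Dex, much less than the -5.53 (log2) of the record with the highest mean. The embryonic chains Hbb-bh1 and Hbb-y were near the filter, with 2.16 and 2.42 for the first and 1.46 and 0.671 for the second. For scale, summed Hba-a1 was at 22.1 in fresh BFU-E, 164 in fresh CFU-E and 110090 in Ter119+ erythroblasts, so for the alpha chain the CD71 water library lay above fresh CFU-E and the CD71/CD24a libraries near fresh BFU-E. The beta chain was placed otherwise: Hbb-bt was at 14.3 in fresh BFU-E and 74.0 in fresh CFU-E, and the CD71/CD24a water library, at 119, lay above both. In these bulk libraries, fewer globin-rich cells and less globin RNA per cell cannot be told apart.

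Most other genes of red cell maturation lay below 0, 16 of 22 for the membrane and 16 of 24 for heme and iron, but few by 2-fold. Over all genes, with a median of 0.04, slightly fewer lay below 0 than above it. Of 22 expressed membrane genes 4 were at least 2-fold lower and none higher, with a median of -0.41 (0.04 over all genes) and a GC-adjusted median of -0.43; after the adjustment 1 of the 4, Epb42, was still past 2-fold. Dmtn (dematin) had 4.91 against 1.62, Rhd 15.6 against 6.59, Epb42 (protein 4.2) 2.37 against 0.678 and Icam4 35.2 against 13.7; the last shares sequence. Adjusted for GC, Dmtn was at -0.85, Rhd at -0.99 and Icam4 at -0.98. Epb42 passed the filter only through the CD71 library. Add2, beta adducin, had 83.1 against 49.6, a difference of -0.73, and Ermap 69.1 against 63.4. In the Dex pair Rhd was at 18.4 and 8.68, and Epb42 at 1.25 and 0.826. Of 24 genes of heme synthesis and iron handling 2 were lower, Erfe (erythroferrone, 10.7 against 4.02) and Ftl1 (ferritin light chain, 623 against 281), both with shared sequence, and the median was -0.21 (GC adjusted -0.24). Ftl1 was at -0.82 after the GC adjustment, which left Erfe alone past 2-fold. Alad, an early enzyme of heme synthesis, had -0.78. Fth1, ferritin heavy chain, had 1703 against 1965. Without a scaling factor the medians of the membrane and heme lists were -0.22 and -0.02, when that of all genes was 0.22, and Rhd, Epb42 and Ftl1 were no longer 2-fold.

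Among 22 erythroid transcription regulators 3 were lower and none higher, and their median GC was 55.8%. Zfpm1, which encodes the GATA1 partner FOG1, had 204 (water) and 152 (Dex) in the CD71 sort against 37.0 to 71.2, a difference of -1.64 (GC adjusted -1.15). Klf1, the erythroid Krüppel-like factor, had 165 and 187 against 62.4 to 77.1, a difference of -1.12, which was -0.62 after the GC adjustment and -0.92 without scaling. Foxo3, active late in erythroid maturation, had 26.2 and 33.3 against 11.4 to 17.0 and likewise -1.10, -0.60 adjusted and -0.92 without scaling. Gata1, the central erythroid GATA factor, was at 136 and 133 in the water pair and at 136 and 130 in the Dex pair, so it was nearly equal in both. Lmo2 had 134 against 169 and Gfi1b 90.6 against 48.8. The list median was -0.24 (GC adjusted -0.12, without scaling -0.04).

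Stem and progenitor genes divided in direction: of 24 expressed, 14 were above 0 and 10 below, 1 was at least 2-fold higher and the median was 0.09 (GC adjusted 0.03). Meis1, a homeobox factor of stem and megakaryocyte progenitors, had 4.27 and 4.56 in the CD71 sort against 9.97 to 12.1 in the CD71/CD24a sort, a difference of 1.32 (GC adjusted 1.10). Vim, vimentin, had 93.5 and 102 against 151 to 184, with a difference of 0.97, and 1.06 GC adjusted. Gata2, the GATA factor of early progenitors, had 24.7 against 41.6 in water (0.73, GC adjusted 1.07) but 19.7 against 20.3 in Dex, and 40.8 and 19.7 in the DMOG libraries without and with Dex. Its higher level was thus seen in the CD71/CD24a libraries without Dex. Apoe had 56.6 against 70.1, Angpt1 1.27 against 3.33, and the myeloid factor Cebpa 1.74 against 0.507, a difference of -0.86. Of the 24 genes 21 were at least 2-fold lower in fresh CFU-E than in fresh BFU-E, where 12.2% of all genes were.

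No member of the 17 expressed BFU-E self-renewal and cytokine receptor genes was past 2-fold; the median was -0.30, before and after the GC adjustment. Zfp36l2, an mRNA decay factor needed for BFU-E self-renewal, had 62.9 against 32.2 in water (-0.94) and 157 against 66.5 in Dex (-1.23). Epor, the erythropoietin receptor, had 80.5 against 43.5 (-0.87, GC adjusted -0.53) and Il3ra 3.36 against 1.36. The glucocorticoid receptor gene Nr3c1 was at 10.9 and 11.7.

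Target genes of the glucocorticoid and cytokine pathways were compared next. Among the genes known to be induced by glucocorticoids, 17 were expressed, and 2 of these were lower and 1, Pik3r1, higher. The metallothionein Mt1 had 933 (water) and 1763 (Dex) in the CD71 sort against 300.2, 459, 397 and 505 in the water, Dex, DMOG and combined CD71/CD24a libraries, a difference of -1.63 (GC adjusted -1.31). Mt2, which shares sequence, had 452 against 45.4, a difference of -3.29. The list median was -0.23, and 0.02 after the GC adjustment. Of 13 JAK-STAT feedback targets 4 were lower and none higher, with a median of -0.69 (GC adjusted -0.47): Osm, the kinase gene Pim2 (22.8 against 5.15, shared sequence), Socs1 (4.99 against 1.51) and Socs3 (2.22 against 0.568). After the GC adjustment Socs1 and Socs3 were at -0.91 and -0.70, and Dusp5, a MAP kinase phosphatase (0.783 against 2.28, shared sequence), was past 2-fold higher at 1.07. Socs3 passed the filter only through the CD71 library and Dusp5 only through the CD71/CD24a library. Pim1 was at 85.8 and 59.4. Of 11 immediate early genes 2 were lower, Junb (28.7 against 9.67) and Jund (18.02 against 7.17, shared sequence), at -0.98 and -0.72 after the adjustment. Egr1 was at 5.83 and 10.1, and Myc at 273 and 202.

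Markers of other cell types differed in direction between lineages. The gates against CD41, Gr-1, Mac-1, CD16/32, CD3 and B220 remove cells of the megakaryocyte, myeloid and lymphoid lineages that carry these antigens. Of 23 neutrophil and mast cell markers only 4 were expressed, and 3 of these were lower: Prtn3, Mpo (myeloperoxidase, 13.4 against 4.51, shared sequence) and S100a9 (1.18 against 0, with an exact counting interval of the ratio that begins at 2.57-fold). S100a9 and Ctsg passed the filter only through the CD71 library, where they are higher. Ctsg, cathepsin G, had 1.07 against 0.414. The summed level of all 23 was 28.8 and 29.5 in the CD71 libraries and 5.87 to 6.93 in the 4 CD71/CD24a libraries, and Ltf, Mmp9 and Fcer1a were at 0 in both water libraries. Fresh BFU-E had a summed level of 101 and fresh CFU-E of 5.16.

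Megakaryocyte markers were in part higher: of 15 expressed, 3 were at least 2-fold higher, 12 were above 0, and the median was 0.61 (GC adjusted 0.67). Over all genes, with a median of 0.04, slightly more lay above 0 than below it. Besides Plek these were Treml1, a platelet receptor (1.08 against 3.52), and Rab27b, of granule secretion (0.883 against 2.92; 0.68 GC adjusted). Rab27b, Pf4 and Gp1bb passed the filter only through the CD71/CD24a library. Thbs1, thrombospondin 1, had 6.57 against 13.7 and F2r, a thrombin receptor, 58.9 against 111, both just under 2-fold. The platelet glycoprotein gene Gp5 was at 20.8 and 20.7. The summed level of the 18 markers was 136 and 139 in the CD71 libraries and 183 to 234 in the CD71/CD24a libraries, against 243 in fresh BFU-E and 45.3 in fresh CFU-E.

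Hepatocyte markers were low in both sorts and higher in the CD71/CD24a sort. Of 16 listed, 5 were expressed and 3 of these at least 2-fold higher, but 3 of the 5 (Alb, Apoa2 and Trf) passed the filter only through the CD71/CD24a library, so the count does not support a direction for the list. Alb, albumin, had 0.483 and 0.289 in the CD71 libraries against 2.94 to 3.95, a water ratio of 8.19 (4.51 to 16.0). Afp, alpha-fetoprotein, had 1.02 and 0.920 against 3.87 to 4.58. Apoa2 was at 0 and 1.06 in the water pair, but at 0.708 and 0.947 in the Dex pair. The summed level was 4.12 and 7.26 in the CD71 sort and 14.6 to 17.8 in the CD71/CD24a sort, below the 38.6 of fresh BFU-E, and 7 of the 16 markers were at 0 in the CD71 water library against 1 in the CD71/CD24a water library. For macrophage markers 3 of 18 matched were expressed and none was 2-fold, with sums of 6.997 and 7.97 against 3.61 to 4.81, and C1qa and Cd163 were at 0. Of the 4 expressed endothelial markers only Eng, endoglin, was past 2-fold (10.5 against 3.87, -0.92 GC adjusted). Erythroid progenitors also express Eng. Tek (0.671 against 1.87), Pecam1 (2.13 against 3.75) and Plvap (4.01 against 4.27) lay above 0, and the list median was 0.34 (GC adjusted 0.56). Tek passed the filter only through the CD71/CD24a library, where it is higher. Sums of the list were 18.1 and 25.6 against 13.5 to 15.0. Eng alone gave 10.5 (water) and 18.6 (Dex) of the CD71 sums. Among lymphoid markers Cd79b alone was expressed (1.58 and 1.69), and Pax5 was at 0. The part of these cells in the differences of other genes was not tested.

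**Figure D5:**
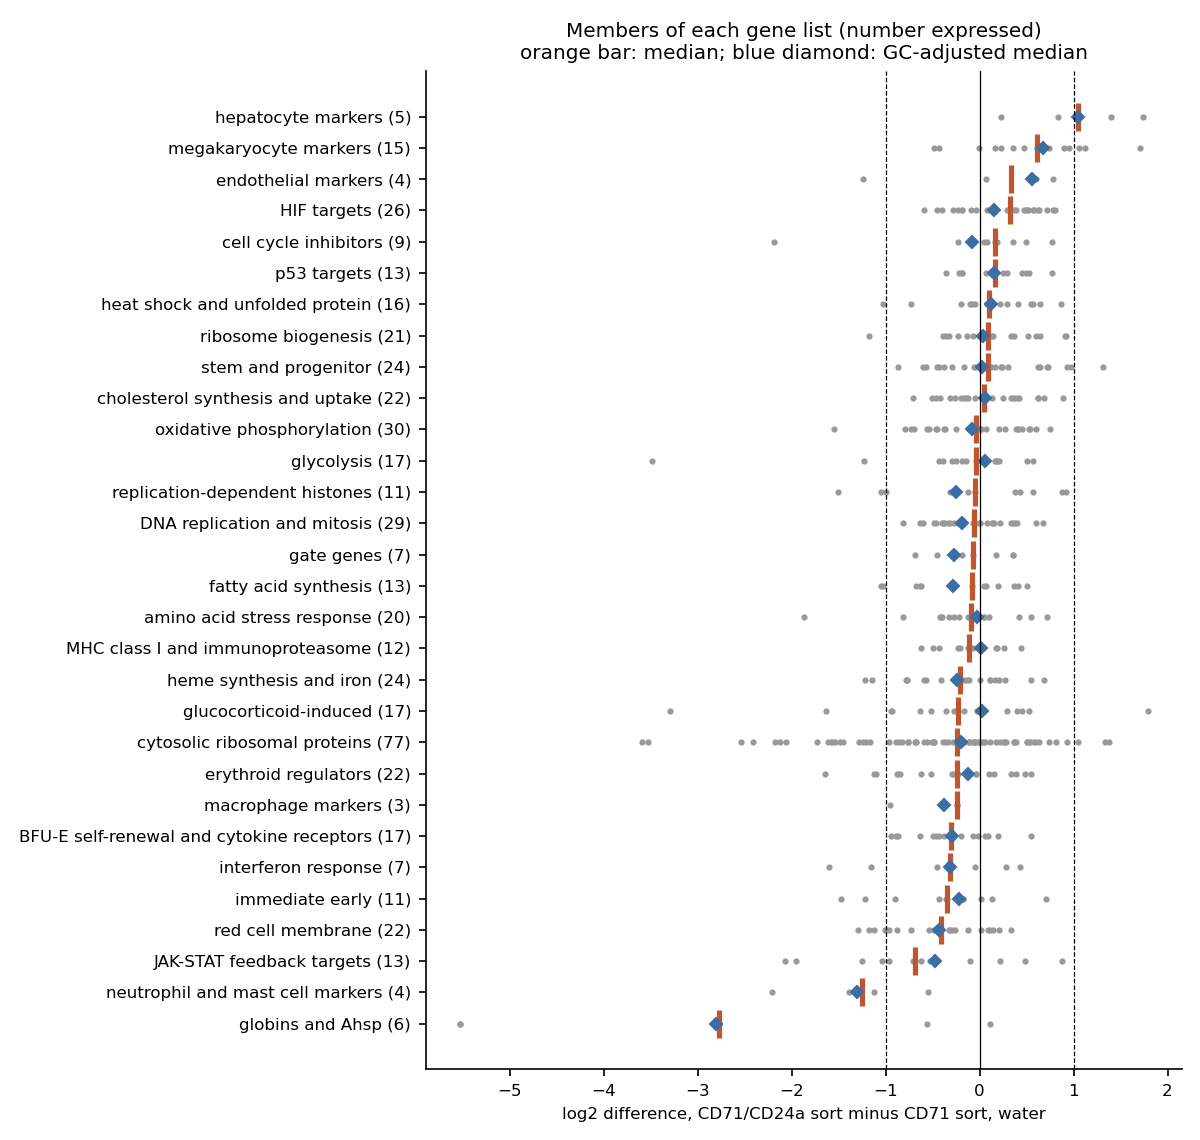
Difference of each expressed member (grey points, log2, CD71/CD24a sort minus CD71 sort, water) of the gene lists with at least 3 expressed genes, the number in brackets. Orange bars are list medians and blue diamonds GC-adjusted medians. Globins, neutrophil and JAK-STAT lists lie lowest (-2.78, -1.26 and -0.69) and hepatocyte and megakaryocyte lists highest (1.04 and 0.61), while the solid line marks 0 and the dashed lines 2-fold. The filter was passed only through the CD71/CD24a library by 3 hepatocyte and 3 megakaryocyte members. It was passed only through the CD71 library by 2 neutrophil members and 1 globin. The filter thus favours the direction shown for these lists.

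Ribosomal protein genes, most of which have pseudogene copies, spread widely. Of 77 expressed, 18 were at least 2-fold lower and 3 higher, with a median of -0.23 and differences from -3.59 (Rps27) to 1.37 (Rps23). The 5 unique members lay between -0.39 and 0.82. Rpl8, the lowest of these, had 2152 against 1637. Rpl37a had 319 against 59.3. Rpl5 had 134 (water) and 8.47 (Dex) in the CD71 sort against 11.7 to 23.9, so its difference was -2.54 in water and 0.94 in Dex. Of 21 ribosome biogenesis genes 1, Fbl (fibrillarin, 194 against 85.6, shared sequence, -0.98 GC adjusted), was lower. In the Dex pair Fbl was at 77.2 and 81.4, a difference of 0.08, so the lower level was seen in the water pair alone. Ncl (nucleolin, 316 against 600, 0.92) and Nop58 (131 against 246, 0.91) were just under 2-fold higher. The adjusted differences of Ncl and Nop58 were 0.55 and 0.48.

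Lists of growth and metabolism held few differences of this size. None of 26 expressed HIF target genes was past 2-fold in the water pair, and their median was 0.33 (GC adjusted 0.16), with Stc2 (6.46 against 12.02), Pfkfb3 (5.60 against 10.3) and Mxi1 (4.64 against 8.28) the highest. Of 17 glycolysis genes 2 were lower, Pgam1 and Gapdh (9.40 against 3.45), both with shared sequence, and Ldha was at 970 and 1018. Of 30 genes of oxidative phosphorylation 1, Cox7c, was lower (18.1 against 5.55, shared sequence), while the ATP synthase genes Atp5b and Atp5a1 had -0.12 and -0.06. None of 22 cholesterol genes was past 2-fold (median 0.04). In fatty acid synthesis 2 of 13 were lower, the regulator Srebf1 (50.8 against 24.1, -0.71 GC adjusted) and the carboxylase Acaca (29.6 against 14.0, shared sequence), whose Dex difference was -0.15. None of 29 replication and mitosis genes was past 2-fold (median -0.06); Mcm2, of the replicative helicase, had 194 against 125 and Pcna, the polymerase clamp, 177 against 194. Of 9 expressed cell cycle inhibitors Cdkn2d alone was past 2-fold, and it passed the filter only through the CD71 library, where it is higher. None of 13 p53 targets was past 2-fold.

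Stress and immune lists were similar. Of 16 heat shock and unfolded protein genes 1, Hspa8 (681 against 334, shared sequence), was lower, and Hsp90ab1 was at 1661 and 2040. Of 20 genes of the amino acid stress response only Phgdh, of serine synthesis, was past 2-fold (136 against 36.5, shared sequence), and the regulator Atf4 was at 217 and 215. None of 12 expressed MHC class I and immunoproteasome genes was. Of 7 interferon response genes Ifitm1 (76.7 against 24.6, shared sequence) and Bst2 (31.8 against 13.7, -0.98 GC adjusted) were lower. Of 11 histone genes 2 were lower, H3c15 (2.11 against 0.0912) and H4c9 (13.3 against 5.93), both with shared sequence. H3c15 was at 0 in the CD71 Dex library, so its difference rests on 1 library. H3c15 passed the filter only through the CD71 library and H1f5 only through the CD71/CD24a library, where each is higher. The filter thus favours the direction of both. After the GC adjustment H4c9 was at -0.96, and H1f2 (2.95 against 6.45) and H1f5 (0.367 against 1.51) were past 2-fold higher, at 1.09 and 1.05.

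The unique genes past 2-fold were set beside the fresh libraries, where 3.3% of 10010 genes were at least 2-fold higher in CFU-E than in BFU-E and 12.2% lower. Of the 84 genes higher in the CD71/CD24a sort 18 (21.4%) were lower and 2 (2.38%) higher in fresh CFU-E; over all 7227 unique genes these shares were 11.9% and 3.03%. Of the 114 genes lower in the CD71/CD24a sort 16 (14.0%) were higher and 8 (7.02%) lower in fresh CFU-E. Rgcc was among the former, with a fresh difference of 4.19, and Prtn3 among the latter, with -3.52. Of all 140 higher genes 24 (17.1%) and of all 299 lower genes 46 (15.4%) were past 2-fold between the fresh libraries in either direction, near the 13.5% of all 9833 genes. Across the 7227 unique genes Spearman's rho between the 2 differences was -0.02, and -0.25 after the GC adjustment of the water pair, a description with no independent points.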

How the data were processed

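RPKM values for 23041 RefSeq records in each of 9 libraries were deposited by the authors, made from Illumina paired-end mRNA libraries on the mm9 build, per the submitters' processing notes and the labels' protocols; the aligner and counter are not given in the sources used here. In the 4 CD71/CD24a files an exact 1 stood where the other files had 0 and was read as 0. Where a name had several records, the one with the highest mean was used. Median-ratio scaling, a filter of 1 RPKM, a pseudocount of 1 and a 2-fold size rule were then applied. Sequence sharing was the percent of a transcript's 32-base words (every 4 bases) found in another gene of GENCODE M21 (GRCm38), with 10% or more called shared. This affects the values because reads from copies may be divided, dropped or counted at either place. Depth was recovered from RPKM steps: 66.4% to 69.4% of low values were whole reads within 0.1 reads, against 20% by chance.

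Each group has 1 library, so no p-value was computed, and the calculations were tested on simulated data. The members and gene lists were chosen with earlier results of these data known. Named genes are the 12 unique and 6 shared genes with the largest difference each way, the gate genes, and in each list the 4 largest differences and 2 highest levels, with 6 preset genes. Some genes that this rule takes in are not reported here. Markers at 0, Hbb-bh1, Hbb-y, Rps23, Hnrnpa1, Ppp1cc, Cdk2ap1, Rpl31, Dusp5, H1f5, Pf4, Gp1bb and Eif3j1 were named after their values were seen. Alternatives covered scaling, filter, pseudocount, the exact 1, records, sharing limits and, chosen after seeing the data, a GC adjustment by 20 bins and the removal of genes apart in 1 library.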

Additional observations from a re-analysis of the deposited data

Results flagged for a closer look

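For 2 shared-sequence genes the water and Dex pairs differed by at least 2-fold in opposite directions; the difference between the pairs was not tested. Eif3j1, encoding a subunit of a translation initiation factor, had a difference of -1.06 in the water pair and 1.18 in the Dex pair, and was chosen after its values were seen. Rpl31, of the large ribosomal subunit, had -2.06 and 1.01, with levels of 85.1 (water) and 8.69 (Dex) in the CD71 sort and 17.2 to 20.2 in the CD71/CD24a sort.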

How the results depend on the processing

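No paired analysis was possible because each group has 1 library. Without a scaling factor 361 genes were higher in the water pair and 660 in the Dex pair, and 67 unique genes were lower, 242 unique higher and 107 shared higher. With a pseudocount of 0.1 these counts were 361, 697, 186, 248 and 101, and 232 genes past 2-fold in water were also past 2-fold between the fresh libraries (70 with a pseudocount of 1). Calling genes shared from 1% of words gave 51 unique and 85 shared higher genes; from 50% it gave 188 unique lower, 97 shared lower and 22 shared higher. With the GC adjustment, chosen after seeing the data, 81 genes were higher in water, 172 lower and 126 higher in Dex, and 58 unique lower, 50 unique higher and 31 shared higher. The median of the neutrophil and mast cell list turned to 0.80 with the exact 1 kept, because members at 1 then pass the filter. Of the named genes 18 came under and 4 went past 2-fold with the GC adjustment, and 12 and 9 without a scaling factor. Counts stayed within 1.5 times under a filter of 5 RPKM, no filter, the exact 1 kept, records summed and the upper-quartile factor. The 4 CD71/CD24a files also wrote 0 differently from the others, so the sort coincides with a set of files. With 1 library a group, differences between sorts, cultures, libraries and file processing cannot be told apart, and genes near 1 RPKM rest on few reads.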
